A study of Danio rerio with 2 samples.

Results

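The uracil-DNA regions described here are those that lie within 2 Mb of either end of a zebrafish chromosome. They were taken from the list the authors made from mapping-quality filtered alignments at a threshold of 0.25, on chromosomes 1 to 25 without chromosome 4. A region was a member if its midpoint lay within 2 Mb of position 0 (the start) or of the last base that any of the 6 deposited lists gives for that chromosome (the end). This gave 1728 regions of the 14806 in the list, on 48 chromosome termini (24 starts and 24 ends). Another 12201 regions lie further inside the same chromosomes and 877 are on chromosome 4. Within this list, whose scores all lie above 0.25, position alone chose the members, with neither length nor score used further. The end of a chromosome is, however, itself set by a listed region.

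The libraries were 1 uracil-DNA enriched library and 1 input library. Both came from pooled wild-type embryos of the AB strain at 2.5 h post fertilization (hpf). Sonicated genomic DNA was sequenced as the input, and fragments bound by a FLAG-tagged uracil-DNA sensor were sequenced as the enriched library. With 1 library per condition there is no replicate. No test between conditions was possible, and the 95% intervals given here cover counting error only. The depth of the libraries is unknown, since the lists hold no read counts, and the scale of the score that each region carries is not stated.

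Uracil enters DNA when a polymerase uses dUTP in place of dTTP, or when a cytosine loses its amino group. Uracil-DNA glycosylases remove it, and dUTPase keeps the dUTP pool low. At 2.5 hpf the zebrafish embryo goes through fast, nearly synchronous divisions that run on maternal RNA and protein. Chromosome termini carry telomere repeats, followed by subtelomeric DNA that is often repeated or duplicated between chromosomes and is therefore hard to assemble and to map. Chromosome 4, left out here, has a long arm known for its repeats and heterochromatin.

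Uracil-DNA regions were denser near chromosome termini than inside. There were 18.0 regions per Mb within 2 Mb of a terminus (95% Poisson interval 17.2 to 18.9) and 10.4 per Mb further inside (10.3 to 10.6). The density ratio was 1.72 (1.64 to 1.81). The termini hold 12.4% of the 13929 regions on these chromosomes (Wilson interval 11.9 to 13.0) on 7.59% of the 1265 Mb of sequence. By bases the gap was wider, because regions near termini were also longer. They covered 3.03 Mb, or 3.16% of the terminal sequence, against 1.59% of the sequence inside, a ratio of 1.99. In the filtered list at 0.5 the gap by bases was not the wider one, as termini held 16.4% of regions but 10.7% of region bases. In the filtered list at the highest threshold, 1, the density ratio turned to 0.615 with only 5 regions near termini, and its interval of 0.257 to 1.47 spans both directions.

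The excess was highest within about 1 Mb of a terminus and had mostly gone by 4 Mb. With starts and ends pooled, the outermost 250 kb held 17.1 regions per Mb. The next 3 steps of 250 kb held 20.7, 21.0 and 20.3 per Mb. From 1000 kb inwards the density was 18.3, 16.8, 15.8 and 14.1 per Mb in successive steps of 250 kb, each lower than the one before. Between 2000 and 3000 kb it was 12.5 per Mb, between 3000 and 4000 kb it was 11.2, and in the steps of 1000 kb from there to 10000 kb it lay between 9.29 and 11.4. Sequence more than 15000 kb from a terminus held 10.5 per Mb. With starts and ends pooled the fall was thus gradual, with no edge at 2 Mb. At starts alone the density went from 14.0 per Mb between 1750 and 2000 kb to 10.2 between 2000 and 3000 kb, and at ends from 14.2 to 14.8. The steps also widen at 2 Mb. The rule itself splits neighbours there, as on chromosome 7, where a region of 200 bp (score 0.251) lies 1999.6 kb from the end and one of 1000 bp (score 0.308) lies 2003 kb from it.

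**Figure D1:**
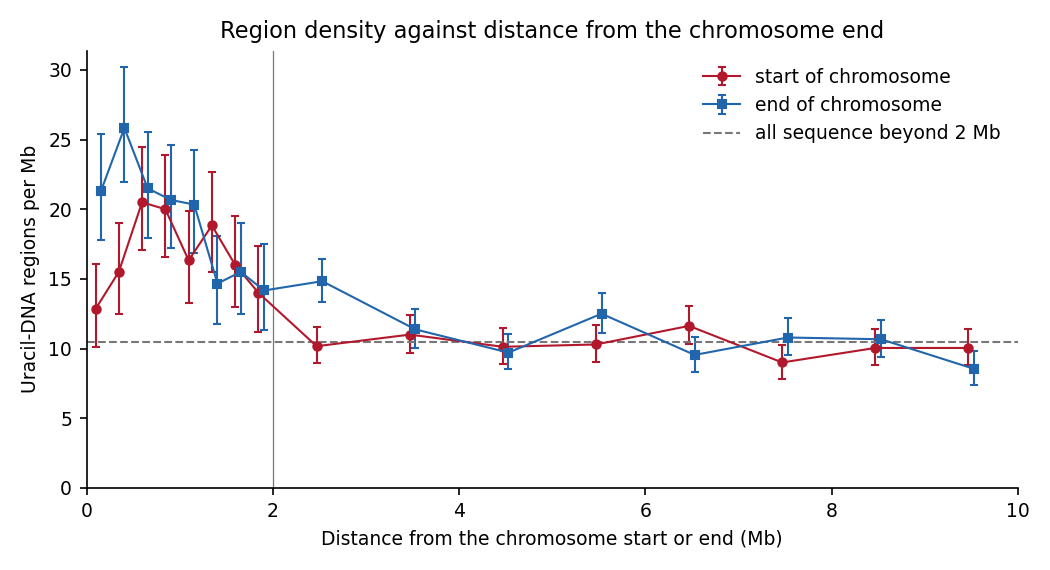
Uracil-DNA regions per Mb against distance from the start (circles) or the end (squares) of the chromosome in Mb, over 24 chromosomes, in steps of 250 kb up to 2 Mb and of 1000 kb beyond; bars are 95% Poisson intervals and the dashed line is the density of all sequence beyond 2 Mb (10.4 per Mb). Ends peak at 25.8 per Mb between 250 and 500 kb, and starts at 20.5 per Mb between 500 and 750 kb.

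Ends held more regions than starts, and the gap was widest in the outermost 500 kb. The 24 starts held 804 regions, or 16.8 per Mb (15.6 to 17.9), and the 24 ends held 924, or 19.3 per Mb (18.0 to 20.5), a ratio of 0.870 (0.792 to 0.956). Per terminus the counts were 33.5 ± 8.62 at starts and 38.5 ± 11.4 at ends (SD over termini), with medians of 35.5 and 37. The interval of the ratio takes regions as independent and does not cover this spread between termini. In the outermost 250 kb the density was 12.8 per Mb at starts and 21.3 at ends, and between 250 and 500 kb it was 15.5 at starts and 25.8 at ends. Between 500 and 1000 kb the steps gave 123 and 120 regions at starts, against 129 and 124 at ends. Further in the order varied, with 16.3 per Mb at starts and 20.3 at ends from 1000 to 1250 kb, but 18.8 at starts and 14.7 at ends from 1250 to 1500 kb. From 1750 to 2000 kb the values were 14.0 at starts and 14.2 at ends. Beyond the limit, between 2000 and 3000 kb, starts were at 10.2 per Mb and ends at 14.8. The contrast was not held under every choice. The interval of the ratio of starts over ends reached past 1 without chromosome 23 (0.918, 0.834 to 1.01) and after merging regions within 10 kb (0.895, 0.795 to 1.01). It also did so in the filtered list at 0.5 (1.01, 0.754 to 1.36). The mean of the ratios of the 24 single chromosomes was 0.982, but such a mean depends on which side is divided by which.

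Starts and ends were not measured from like points. Starts were counted from position 0, whereas ends were counted from the last listed base, so that a region often sits on an end by construction. Of the 24 ends, 17 are set by a region of this very list. The outermost region lay at a median of 115 kb from a start (13.9 to 441 kb) and of 0.750 kb from an end (0.0500 to 221 kb). Only 2 ends, those of chromosomes 6 and 16, do not fall on a 100 bp step, and the sequence may continue past the last listed base elsewhere. Chromosome lengths were not used here. Without the outermost 0.1 Mb of each terminus the ratio of starts over ends was 0.917, with an interval of 0.832 to 1.01 that spans 1. It was 0.886 (0.806 to 0.975) without the regions of this list that set those 17 ends, with the last region kept at the other ends. It was 0.894 (0.814 to 0.982) with starts counted from the first listed base. With starts counted from that base, which lay 6.40 to 268 kb from position 0, the outermost 250 kb held 20.8 regions per Mb at starts and 21.3 at ends. The step from 250 to 500 kb still held 14.7 at starts and 25.8 at ends. The density of the outermost 250 kb over that from 1750 to 2000 kb was 1.21 (0.990 to 1.49) as defined and 1.61 (1.32 to 1.97) from the first listed base. Counting from that base puts a listed region at each start by construction, which can raise the outermost step. The ratio was 1.11 (0.904 to 1.37) without the regions of this list that set those 17 ends. Without regions of 200 bp or less it was 1.07 (0.861 to 1.33). Both of these intervals, like that as defined, span 1.

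**Figure D2:**
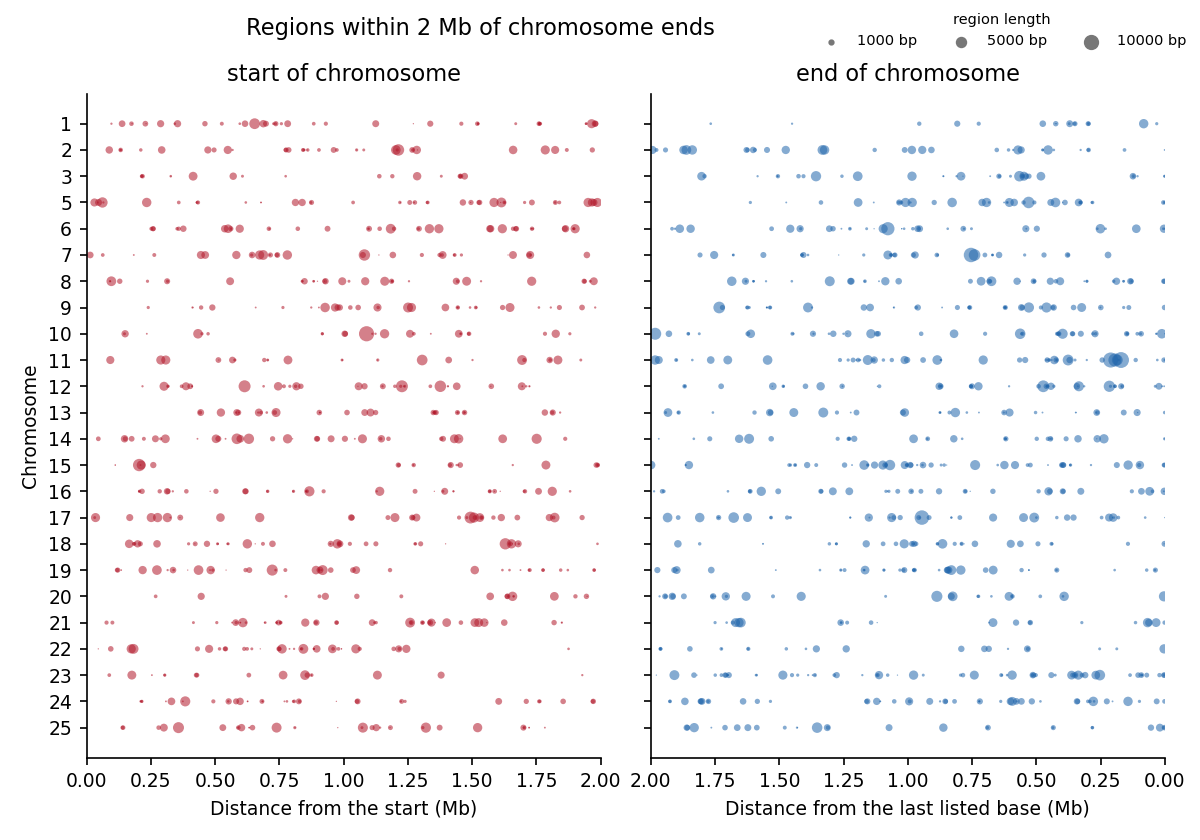
Every region within 2 Mb of a start (left) or an end (right), 1 row per chromosome, placed by its distance in Mb; the area of a point is proportional to region length. Points lie along nearly the whole of most termini, and large points cluster near 0.2 Mb at the end of chromosome 11.

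The excess was spread over nearly all chromosomes. Of the 48 termini, 44 held more regions than the mean of the 2 Mb windows inside the same chromosome, 21 of them starts and 23 ends, and on 20 chromosomes both termini did. Termini held 36.0 ± 10.3 regions each (SD over 48 termini), with 16 at the lowest and 66 at the highest, and the 575 complete windows inside held 20.7 ± 7.03 (SD over windows), from 6 to 66. The distributions overlap, but 28 termini lay above the 95th percentile of the inside windows, which is 34 regions and was exceeded by 25 of the 575. In 20 termini, 10 starts and 10 ends, the count was higher than in any window inside the same chromosome. The share of regions near termini stayed between 12.2 and 12.7% when any single chromosome was left out.

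The end of chromosome 23 was the densest terminus, with 66 regions, against a mean of 19.3 ± 5.73 and a highest value of 33 in the 21 windows inside that chromosome. It held 24 regions in the outermost 500 kb and 14, 15 and 13 in the following steps of 500 kb, so its excess ran through the whole 2 Mb. The ends of chromosomes 15 (56 regions), 11 and 12 (52 each), and 10 and 24 (48 each) followed. On chromosomes 10, 11 and 12 the outermost 500 kb carried 22, 23 and 26 of these, whereas on chromosome 15 the largest step was from 1000 to 1500 kb, with 21. The highest start was that of chromosome 21, with 46 regions.

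The fewest regions were at the start of chromosome 23, with 16, followed by the starts of chromosomes 3 and 20 and the end of chromosome 1, with 18 each. These 4 were the termini below the inside mean of their chromosome, at 0.828, 0.877, 0.877 and 0.905 of it. Next came the start of chromosome 15, with 21. Chromosome 23 thus had a sparse start opposite a very dense end. On chromosome 15 the start, also opposite a very dense end, lay close to the inside mean, at 1.02 of it. In all, 10 chromosomes had more regions at the start, 13 had more at the end, and chromosome 13 had 36 at each. Across the 24 chromosomes the counts at start and end had a Pearson r of -0.46 and a Spearman rho of -0.34 (r = -0.39 over 22 chromosomes, without 23 and 3), all measured in the same pair of libraries and given as a description.

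**Figure D3:**
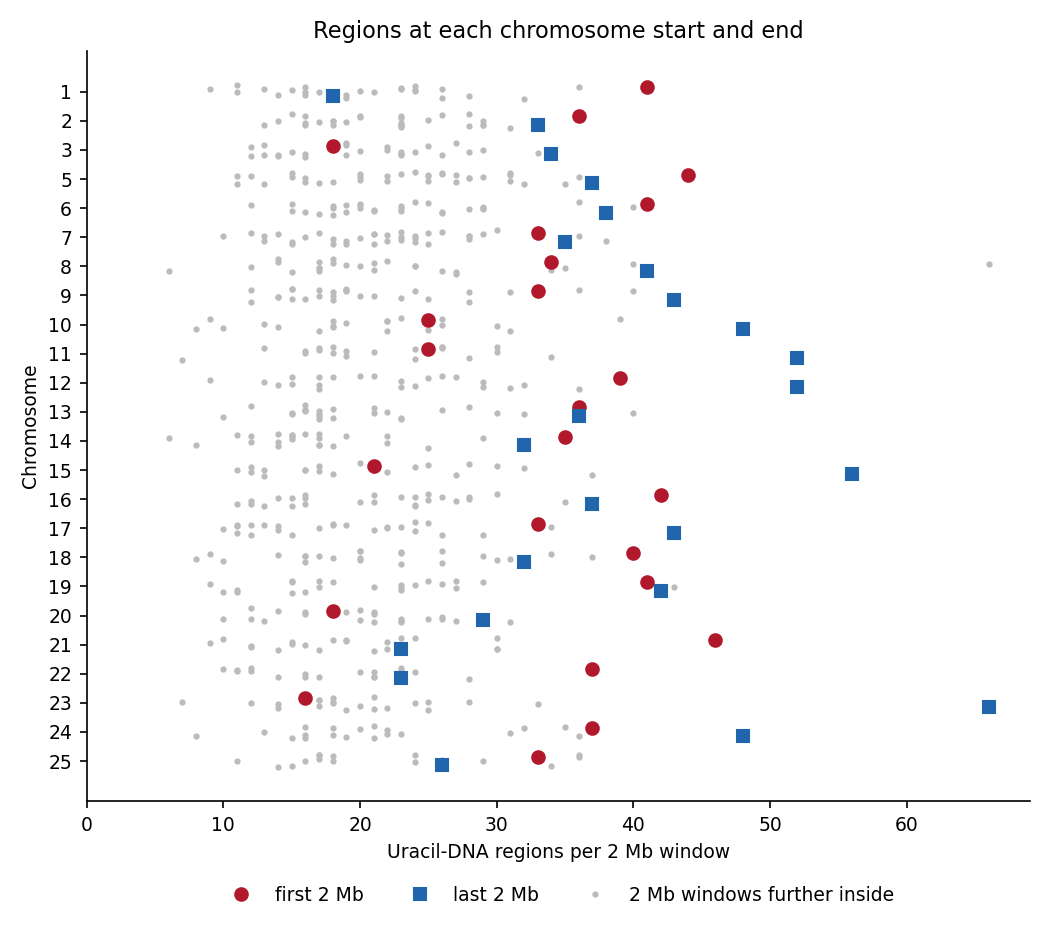
Number of uracil-DNA regions in the first 2 Mb (circles) and the last 2 Mb (squares) of each chromosome and in the 2 Mb windows further inside it (grey points, jittered vertically). The coloured points lie to the right of most grey ones, from 16 at the start of chromosome 23 to 66 at its end; a single inside window, on chromosome 8, also holds 66.

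Regions near termini were longer than those inside. Their median length was 1000 bp (interval 1000 to 1100), with quartiles of 400 and 2500 bp, against a median of 800 bp (700 to 800) and quartiles of 300 and 1800 bp inside. The median was longer near termini on 23 of the 24 chromosomes, with 700 to 1500 bp per chromosome against 700 to 800 bp inside. Starts (median 1100 bp, interval 900 to 1200) and ends (1000 bp, 900 to 1200) did not differ beyond their intervals. The median also showed no trend over the 2 Mb, as it lay between 900 and 1200 bp in all 8 steps of 250 kb. A median of 1000 bp was not confined to termini, as the inside step from 4000 to 5000 kb had it too. The other steps beyond 2 Mb had medians of 700 to 850 bp. The very longest regions were found inside, where 1.06% exceeded 10000 bp and the longest had 56100 bp, against 0.347% (6 of 1728) and 14500 bp near termini.

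A length of 4 to 6 kb stood out. Of the regions near termini 201 were over 4000 and up to 6000 bp long, or 11.6% (10.2 to 13.2), against 738 or 6.05% (5.64 to 6.49) inside. Per Mb of sequence they were 3.32 times as dense near termini, whereas regions of up to 500 bp were 1.38 times and those over 6000 bp 1.37 times as dense. Between these, the ratio rose with each length class, with 1.51 for those up to 1000 bp and 1.88, 2.06 and 2.55 for those up to 2000, 3000 and 4000 bp. The class over 6000 bp has no upper limit. It includes the regions over 10000 bp, which were 0.347% of those near termini and 1.06% of those inside. All 48 termini held at least 1 region of 4 to 6 kb, and 67.0% of the 575 inside windows did. The mean was 4.19 ± 2.28 per terminus and 1.25 ± 1.27 per inside window (SD). The start of chromosome 17 had the most, 10, and the start of chromosome 14 and the ends of chromosomes 2 and 23 had 8 each. They made up 32.5% of the region bases near termini and 19.5% of those inside. Within the 2 Mb their density was 2.00, 2.33, 1.83 and 2.21 per Mb in successive steps of 500 kb. These counts are too small to tell whether it fell with distance as that of all regions did. These length classes were drawn after the lengths had been seen.

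**Figure D4:**
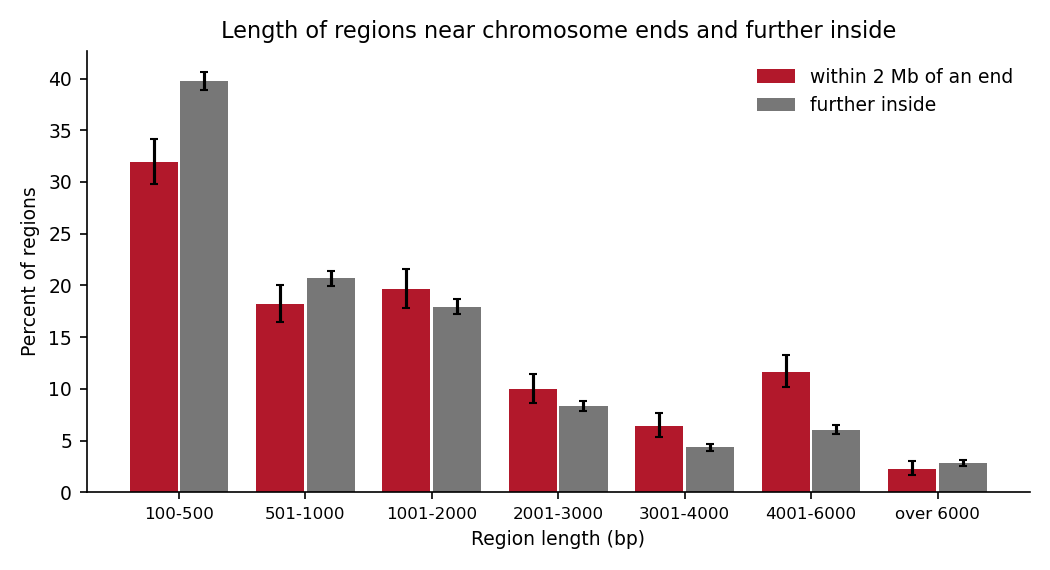
Percent of regions in each length class (bp), within 2 Mb of a terminus (red, n = 1728) and further inside (grey, n = 12201); bars are Wilson 95% intervals. Regions of 100 to 500 bp were 31.9% near termini and 39.8% inside, and those over 4000 and up to 6000 bp were 11.6% near termini and 6.05% inside.

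Scores near termini were slightly higher, and this went with length. The median score was 0.280 (0.279 to 0.283) near termini and 0.273 (0.272 to 0.273) inside, a difference of 0.00776, and it was higher near termini on 23 of 24 chromosomes. By distance, the inside step from 4000 to 5000 kb had a median of 0.279, close to that of termini. The other steps beyond 2 Mb had 0.271 to 0.277. A score above 0.3 was given to 33.7% of the regions near termini (31.5 to 36.0) and to 24.1% of those inside (23.3 to 24.8). Starts (0.280) and ends (0.281) had nearly the same median. In this list the score rises with length, with a Spearman rho across regions of 0.92 near termini and 0.90 inside. Within a length class of up to 4000 bp the medians differed by at most 0.00240. For 4 to 6 kb the median was 0.391 (0.381 to 0.403) near termini and 0.375 (0.368 to 0.380) inside. For the 39 terminal regions over 6000 bp it was lower, 0.436 (0.408 to 0.485) against 0.512 (0.488 to 0.537) inside. That class has no upper limit and is not matched for length, as 129 of its 346 regions inside exceed 10000 bp, against 6 of the 39. The mean score was 0.303 near termini and 0.293 inside, and weighting the inside regions to the length classes found near termini gave 0.301. That weighting includes the class over 6000 bp, where inside regions run longer and score higher, which can raise the weighted value. In the filtered list at 0.5 the median length was 1300 bp near termini and 1500 bp inside, and the median score was 0.538 near termini and 0.546 inside. Neither difference was beyond its interval, as the ratio of lengths was 0.867 (0.600 to 1.07) and the difference in score -0.00764 (-0.0182 to 0.000826).

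**Figure D5:**
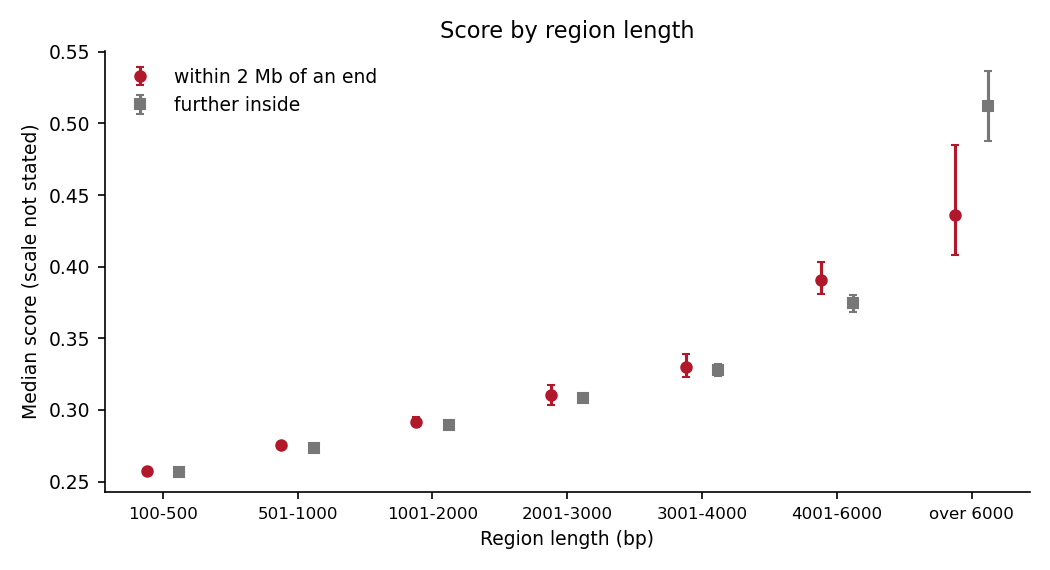
Median score (scale not stated, all values above 0.25) by region length class in bp, within 2 Mb of a terminus (circles) and further inside (squares); bars are 95% order-statistic intervals. The points of both groups lie close together up to 4000 bp and part in opposite directions above, at 0.391 and 0.375 for 4 to 6 kb and at 0.436 and 0.512 for over 6000 bp. The last class has no upper limit and holds longer regions inside, so it is not matched for length.

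Of the 100 highest scores on these chromosomes 8 were near termini, where 12.4% of all regions lie, a count too small to tell these shares apart. Inside, 12 regions scored above the highest terminal one. That region is on chromosome 9, from 54508401 to 54516300 (GRCz11), 1734 kb from the end, with a length of 7900 bp and a score of 1.01. The second, on chromosome 1 from 650401 to 657100, lies 654 kb from the start and scored 0.897. The third, on chromosome 10 from 1082701 to 1096000, is 13300 bp long, lies 1089 kb from the start and scored 0.776. The fourth, on chromosome 12 from 48897301 to 48904600, scored 0.770 and lies 216 kb from the end. These 4 are the terminal regions that the filtered list at a threshold of 1 touches, with highest scores there of 1.27, 1.13, 1.05 and 1.04.

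The next 6 by score were 5300 to 12100 bp long. The highest of them was chr19:432701-438100, with a score of 0.716, and chr11:1691601-1697200 had 0.713. At 0.699 chr7:73509401-73521500 was the longest of the 6. Both termini of chromosome 14 held one, chr14:50940401-50946100 at the end with 0.697 and chr14:1748301-1754200 at the start with 0.657. The last was chr15:46843501-46848800, with 0.654. Unfiltered regions at 0.25 covered at least 97.3% of each of the 10. By distance the 10 were scattered, from 216 to 1751 kb, with 5 at starts and 5 at ends.

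The longest terminal region, on chromosome 11 from 45070601 to 45085100, had 14500 bp and a score of 0.398 and lies 170 kb from the end. With another long one, from 45030901 to 45044000 (13100 bp, 0.366), and 3 more it forms a stretch of 54.2 kb in which regions cover 44.5 kb, the most of any terminal stretch after regions within 10 kb were merged. In the unfiltered list at 0.25, the highest score among the regions that touch the same 2 long regions was 0.560 and 0.484. Those unfiltered regions have limits of their own, so these scores and the filtered ones are not like measures. The next stretch by region bases was at the end of chromosome 7, with 19.9 kb in 2 regions. The other regions among the 5 longest were those on chromosomes 10 and 7 given above and one on chromosome 17 from 52435301 to 52447400 (12100 bp, 0.418).

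The spacing of regions went with their density. The median gap to the nearest region was 3.50 kb (2.30 to 5.30) near termini and 5.90 kb (5.20 to 6.80) inside, intervals that overlap, and 61.2% (58.8 to 63.4) against 54.3% (53.4 to 55.2) had a neighbour within 10 kb. Merging regions within 10 kb left 1088 stretches near termini, or 11.3 per Mb, and 8233 inside, or 7.04 per Mb, so that the density ratio was 1.61. A terminal stretch held at most 9 regions, and an inside one at most 19.

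Regions near termini were covered by the unfiltered list at 0.25 more often than those inside, while the other lists gave mixed results. The 6 lists share their libraries, so this is no replication. Unfiltered regions at 0.25 covered at least 50% of 988 of the 1728 terminal regions, or 57.2% (54.8 to 59.5), against 41.7% (40.8 to 42.6) inside and 43.6% over all 13929. The share rises with length, but it was higher near termini in each class up to 6000 bp. It was 88.3% (81.0 to 93.0) against 77.0% (73.2 to 80.4) inside for lengths over 3000 and up to 4000 bp, and 97.5% (94.3 to 98.9) against 88.8% (86.3 to 90.8) inside for 4 to 6 kb. For lengths over 1000 and up to 2000 bp, 62.2% (57.0 to 67.2) near termini and 56.3% (54.2 to 58.4) inside, the intervals overlap.

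At the higher threshold of 0.5 filtered regions covered at least 50% of 2.84% of terminal regions (2.15 to 3.73) and of 2.36% of inside regions (2.11 to 2.65), with overlapping intervals. By the looser rule of sharing at least 1 base, they touched 143 terminal regions, or 8.28% (7.07 to 9.67), against 5.21% (4.83 to 5.62) inside and 5.59% over all. These 143 had a median length of 5300 bp and lie on 44 of the 48 termini (73 at starts, 70 at ends). Of the 201 terminal regions of 4 to 6 kb, 100 were among them, or 49.8% (42.9 to 56.6), against 37.3% (33.8 to 40.8) of the same class inside. In the neighbouring classes the intervals overlapped, so whether they share this difference cannot be told. The class over 6000 bp also has no upper limit and is not matched for length. For lengths over 3000 and up to 4000 bp 7.21% (3.70 to 13.6) near termini and 6.60% (4.79 to 9.05) inside were touched, and over 6000 bp 82.1% (67.3 to 91.0) near termini and 90.5% (86.9 to 93.1) inside. At a threshold of 1, filtered regions touched 4, or 0.231% (0.0901 to 0.594), against 0.598% (0.476 to 0.752) inside and 0.553% over all. Of the terminal regions, unfiltered regions covered at least 50% of 55 (3.18%) at 0.5, against 3.17% over all, and of 2 (0.116%) at 1, against 0.165% over all.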

How the data were processed

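The samples were 1 uracil-DNA enriched library and 1 input library of 2.5 hpf embryos. The authors mapped the reads to GRCz11 with bwa mem and samtools, with Trimmomatic and deepTools listed too in the submitters' processing notes. From the comparison of the enriched library with the input they deposited 6 lists of regions, with a score for each region. Per the file names, the lists differ in the threshold (0.25, 0.5 or 1) and in whether alignments were filtered on mapping quality. What called the regions, which mapping quality was required and what the score measures is not given in the sources used here. Starts were raised by 1 to count positions from 1.

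Distances were computed from midpoints with python 3.11.15, numpy, pandas and scipy 1.17.1. Intervals are Wilson (shares), exact Poisson (densities) and order-statistic (medians), all at 95%, and regions are not independent of their neighbours. The interval of the share of bases was scaled from that of the share of regions. Intervals of the length ratio and the score difference are those of the median near termini. They take the median inside as fixed and leave out its error. The scripts were tested on simulated lists, 20 for each of 4 settings, and 20 of 20 checked values were counted as recovered. How close a value had to be is not stated here. The check therefore cannot tell whether small contrasts, such as that of starts over ends, or a fall with distance would be recovered. The members and the classes of regions were chosen with earlier results of these data known. Named regions were the 10 with the highest scores, the 5 longest, those touched by the filtered list at 1, and the termini with the most and the fewest regions. Alternatives were the other lists, windows of 1 and 0.5 Mb, chromosome 4, merging, and the omission of chromosomes, outermost or short regions. Genes, gene features and sequences are not reported, since a genome and annotation of GRCz11 were not used here.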

Additional observations from a re-analysis of the deposited data

How the results depend on the processing

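No paired analysis was possible because each condition had 1 library. Against the filtered list at 0.25, the share of regions near termini (12.4%) was 13.8% in the unfiltered list at 0.25, 16.4% in the filtered list at 0.5 and 4.81% in that at 1. It was 6.81% within 1 Mb and 3.25% within 0.5 Mb, smaller windows that hold less sequence by construction, 11.7% after merging within 10 kb and 11.8% without the outermost 0.1 Mb. The share of bases (14.1%) was 10.7% at 0.5 and 3.09% at 1, 7.70% within 1 Mb and 3.63% within 0.5 Mb. After merging it was 14.8%, but there the bases are those of whole stretches, with the gaps between their regions. The density ratio of termini over inside (1.72) was 1.96 unfiltered, 2.38 at 0.5, 1.85 within 1 Mb, 1.74 within 0.5 Mb and 1.61 after merging, but 0.615 at 1. The ratio of starts over ends (0.870) was 1.01 at 0.5 (89 regions at starts, 88 at ends), 0.667 at 1, 0.771 within 1 Mb and 0.601 within 0.5 Mb. It was 0.982 as a mean of the ratios of single chromosomes, which depends on which side is divided by which. The density of the outermost 0.25 Mb over that at 2 Mb (1.21) was 1.61 with starts counted from the first listed base, an alternative chosen after seeing the data. That alternative puts a listed region at each start by construction. The ratio of median lengths (1.25) was 0.867 at 0.5, 0.400 at 1, 1.40 without regions of 200 bp or less and 1.42 as a mean over chromosomes. It was 1.69 after merging, where a length is that of the whole stretch, gaps included. The difference in median score (0.00776) was -0.00764 at 0.5 and -0.0646 at 1. It was 0.0159 after merging, where a stretch carries the highest score among its regions. At 0.5 the intervals of the length ratio (0.600 to 1.07) and of the score difference (-0.0182 to 0.000826) span no difference. The filtered list at 1 has 5 regions near termini, so its values rest on very few. Other than for the shares in the smaller windows, the cause was not tested. At a threshold of 1 the outermost step could not be compared with that at 2 Mb. All other values from the alternatives run, including those with chromosome 4 or without any 1 chromosome, stayed within or at the 95% intervals of the values in brackets. Even so, the interval of starts over ends spans 1 without the outermost 0.1 Mb (0.917, 0.832 to 1.01), after merging (0.895, 0.795 to 1.01) and without chromosome 23 (0.918, 0.834 to 1.01). Neither depth nor variation between embryos can be given from these lists.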

Other observations

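Chromosome 4, which was left out above, had 52 regions in its first 2 Mb and 16 in its last 2 Mb, against 21.9 per 2 Mb further inside it. Its 2 termini thus lay on opposite sides of its inside density. The median length near its termini was 750 bp and the median score 0.272.

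In the unfiltered list at 0.25, 1375 regions lay near the 48 termini, or 14.3 per Mb, against 7.32 per Mb inside. Of these, 140 (10.2%, Wilson 95% interval 8.69 to 11.9) were touched by no filtered region at 0.25, against 18.7% (17.9 to 19.6) of those inside. Per Mb of sequence, such regions were about as frequent near termini (1.46) as inside (1.37). These counts are not matched for length or score, and the part of mapping quality in the excess was not tested.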
